A study of Mus musculus with 12 samples.

Results

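Fgf5, Otx2, Pou3f1, Zic2 and Zic5, 5 genes of the formative and post-implantation epiblast, were examined in the list of accessible regions that the authors merged from mouse ES cells. The members are the merged regions that overlap the body of one of these genes or the 100 kb to either side of it in the GENCODE M21 annotation of GRCm38 (mm10), and 98 of the 170548 regions in the list met that rule. The series holds 12 ATAC-seq libraries of 2 mouse ES cell lines, in 6 groups of 2 replicates each, the list pools peaks of both lines, and ATAC-seq marks open DNA by the insertion of sequencing adapters with the transposase Tn5. ZHBTc4 cells carry Pou5f1, the gene of OCT4, under a Tet-Off promoter, and were left untreated (OCT4 ON) or given doxycycline (dox) for 24 hr (OCT4 OFF). In 2TS22C cells the Tet-Off promoter drives Sox2, and cells with dox (SOX2 OFF) or without it (SOX2 ON) were taken at 26 hr and at 40 hr. Dox was used at 1 µg/ml, and all groups grew in serum medium with LIF, CHIR99021 and PD184352. The samples are thus ES cell lines kept in this medium with or without dox, and not epiblast-like cultures. The paper reports that some SOX2 remained at the earlier SOX2 OFF time and not at the later. It also links OCT4 loss to differentiation toward trophoblast stem cells. Whether the cells given dox were still naive was not tested. Each line is a derived transgenic line, so neither represents unmodified ES cells.

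Each entry of the list is a pair of positions on a chromosome, without a height, a p-value or a value per library. A region may therefore have been open in either line and with or without dox, the effect of dox on these genes and its error over replicates could not be computed, and the depth of each library is unknown here. What follows describes where regions lie, how wide they are and what sequence they hold, beside the same measures over all regions or all protein-coding genes. No test was made between the genes and the rest, and intervals cover counting error only.

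Before implantation, epiblast cells and the ES cells derived from them hold a naive network of transcription factors. As they leave it, they pass through a formative phase in which the naive factors decline and a set of post-implantation factors rises, while OCT4 and SOX2 stay on. Fgf5 encodes a secreted fibroblast growth factor and is a classical marker of the post-implantation epiblast, Otx2 encodes a homeodomain factor that directs OCT4 to new enhancers during this transition, Pou3f1 encodes the POU factor OCT6, and Zic2 and Zic5 encode zinc finger factors of the ZIC family that lie head to head on chromosome 14.

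The sequences that carry the description are given first. In each, capitals mark an exact match to one of 11 short motifs, searched on both strands, or the composite element explained below. The regions around Fgf5 were printed because Fgf5 is known for enhancers on its downstream side. The first sequence is the central 200 bases of the distal region in an intron of Fgf5. The others are 200 bases centered on each of the 5 regions between the 3′ end of Fgf5 and the next gene, Cfap299. At chr5:98293026-98293194, 169 bp wide, the printed bases run past both edges of the region. All these sequences are on the plus strand of GRCm38. They were chosen after the positions of the regions were known.
chr5:98255935-98256134: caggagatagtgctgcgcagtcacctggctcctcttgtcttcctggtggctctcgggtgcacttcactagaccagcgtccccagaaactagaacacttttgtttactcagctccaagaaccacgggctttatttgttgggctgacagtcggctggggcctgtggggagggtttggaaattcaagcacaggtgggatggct
chr5:98283901-98284100: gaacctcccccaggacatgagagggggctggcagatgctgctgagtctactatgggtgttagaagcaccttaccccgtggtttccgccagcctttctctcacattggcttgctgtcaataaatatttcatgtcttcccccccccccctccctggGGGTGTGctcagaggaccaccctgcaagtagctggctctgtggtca
chr5:98293010-98293209: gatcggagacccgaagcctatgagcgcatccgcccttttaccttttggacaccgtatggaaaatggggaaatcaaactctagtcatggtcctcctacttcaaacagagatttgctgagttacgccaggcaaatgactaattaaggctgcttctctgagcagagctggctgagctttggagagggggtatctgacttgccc
chr5:98293457-98293656: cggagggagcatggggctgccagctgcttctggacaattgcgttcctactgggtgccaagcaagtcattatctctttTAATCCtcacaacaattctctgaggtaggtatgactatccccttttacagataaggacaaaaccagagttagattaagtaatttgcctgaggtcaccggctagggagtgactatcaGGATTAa
chr5:98310426-98310625: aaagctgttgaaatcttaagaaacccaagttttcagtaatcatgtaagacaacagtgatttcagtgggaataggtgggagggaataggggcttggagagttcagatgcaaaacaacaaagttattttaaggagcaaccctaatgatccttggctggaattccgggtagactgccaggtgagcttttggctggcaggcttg
chr5:98312195-98312394: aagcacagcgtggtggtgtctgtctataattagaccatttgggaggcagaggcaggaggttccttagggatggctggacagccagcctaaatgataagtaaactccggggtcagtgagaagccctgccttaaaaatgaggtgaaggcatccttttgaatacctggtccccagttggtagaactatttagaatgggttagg
In the region 29.8 kb from the 5′ end of Fgf5 the capitals are the KLF motif GGGTGTG, and in the region at 39.4 kb they are the OTX motif TAATCC, a copy on each strand, which Otx2 and its relatives bind. The other 4 windows held none of the 11 motifs. Among all distal regions of the list, 7.6% held the KLF motif and 6.38% the OTX motif in their central 200 bp.

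At Otx2, the widest distal region was printed, together with the region of its 5′ flank that held exact matches to both the octamer ATGCAAAT, which OCT4 and other POU factors bind, and the SOX motif CATTGTT. The composite element is CATTGTT directly followed by ATGCAAAT, the arrangement on which SOX2 and OCT4 bind as a pair, and a match had at most 3 mismatches over its 15 bases. The other sequences are those of the regions with such a match at Pou3f1 and at Zic5, each on the plus strand of GRCm38, 200 bases long and centered on the region or, at Pou3f1, on the match. The printed bases run past an edge of the region at Pou3f1 and past both edges at Zic5.
Otx2 chr14:48654988-48655187: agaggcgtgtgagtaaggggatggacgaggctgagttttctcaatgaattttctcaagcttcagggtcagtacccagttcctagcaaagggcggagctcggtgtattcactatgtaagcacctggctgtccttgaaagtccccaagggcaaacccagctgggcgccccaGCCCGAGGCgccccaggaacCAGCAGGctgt
Otx2 chr14:48754096-48754295: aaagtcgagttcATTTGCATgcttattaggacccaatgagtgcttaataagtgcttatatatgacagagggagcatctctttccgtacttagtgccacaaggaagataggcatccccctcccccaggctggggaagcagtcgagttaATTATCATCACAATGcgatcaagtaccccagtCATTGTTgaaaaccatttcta
Pou3f1 chr4:124631706-124631905: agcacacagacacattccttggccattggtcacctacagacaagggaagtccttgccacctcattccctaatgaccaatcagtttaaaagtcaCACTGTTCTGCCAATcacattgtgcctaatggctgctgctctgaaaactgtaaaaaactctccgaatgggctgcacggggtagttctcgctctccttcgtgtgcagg
Zic5 chr14:122393245-122393444: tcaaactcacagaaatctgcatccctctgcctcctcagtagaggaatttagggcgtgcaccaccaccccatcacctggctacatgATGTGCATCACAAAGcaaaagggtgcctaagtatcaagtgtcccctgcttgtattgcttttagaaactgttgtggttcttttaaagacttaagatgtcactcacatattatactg
In the first of these the capitals are the AP-2 palindrome GCCNNNGGC and the ZIC motif CCTGCTG on the reverse strand. In the second they are, from left to right, the octamer on the reverse strand, the composite match on the reverse strand and the SOX motif. In the Pou3f1 and Zic5 windows the capitals are the composite match alone. The match at Otx2 reads CATTGTGATGATAAT on its own strand, with 1 mismatch in the SOX part and 2 in the octamer part. The match at Pou3f1 reads CACTGTTCTGCCAAT, also with 1 and 2. At Zic5 it reads CTTTGTGATGCACAT, with 2 in the SOX part and 1 in the octamer part.

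RefSeq promoter entries for this build matched Fgf5, Otx2 and Zic5, and not Pou3f1 and Zic2. The 4 entries of Otx2 were not printed. The promoters of Fgf5 (plus strand) and Zic5 (minus strand) are given up to the transcript start, with 250 bases for Fgf5 and 231 for Zic5. A merged region lies over all or part of each.
Fgf5 chr5:98253934-98254183: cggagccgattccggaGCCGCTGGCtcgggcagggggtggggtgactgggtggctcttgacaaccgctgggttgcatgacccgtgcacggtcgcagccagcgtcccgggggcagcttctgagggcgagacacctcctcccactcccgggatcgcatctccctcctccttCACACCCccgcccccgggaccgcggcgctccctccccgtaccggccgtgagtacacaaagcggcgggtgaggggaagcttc
Zic5 chr14:122465678-122465908: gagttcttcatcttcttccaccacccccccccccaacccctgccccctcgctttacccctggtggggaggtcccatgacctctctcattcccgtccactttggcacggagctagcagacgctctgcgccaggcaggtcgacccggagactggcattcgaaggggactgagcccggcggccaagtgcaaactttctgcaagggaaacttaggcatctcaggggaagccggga
A merged region covered all 250 bases of the Fgf5 window and 161 of the 231 bases of the Zic5 window. The capitals in the Fgf5 promoter are the AP-2 palindrome and the KLF motif on the reverse strand, held by 13.7% and 6.93% of the 32851 RefSeq promoter windows of 250 bases. The Zic5 window held none of the 11 motifs. The Fgf5 window held 24 CG dinucleotides and the Zic5 window 11, where the median over all promoter windows was 6.

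The 98 regions fall in 4 windows, since Zic2 and Zic5 share theirs. There were 21 regions at Fgf5, 19 at Otx2, 29 at Pou3f1 and 29 at the Zic genes, of which 25 lie within reach of both Zic genes and 4 of Zic5 only. Over the 866 kb of the windows this is 11.3 regions per 100 kb (95% Poisson interval 9.19 to 13.8). Across 21938 protein-coding genes measured the same way, the median was 10.1 per 100 kb, with quartiles of 5.86 and 14.4. Otx2 had the lowest density of the 5 genes, 8.79 per 100 kb, at the 42.1 percentile of protein-coding genes, and Fgf5 followed with 9.42 at the 45.9 percentile. Zic2 had 12.2 at the 62.9 percentile, Zic5 had 13.9 at the 72.3 percentile and Pou3f1 had 14.2 at the 74.1 percentile. All 5 genes lay between the quartiles of protein-coding genes, a placement that changed with the flank: with flanks of 50 kb Fgf5 was just below the lower quartile, at the 24.9 percentile, and Pou3f1 and Zic5 were above the upper quartile, at the 87.6 and 77.5 percentiles.

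**Figure D1:**
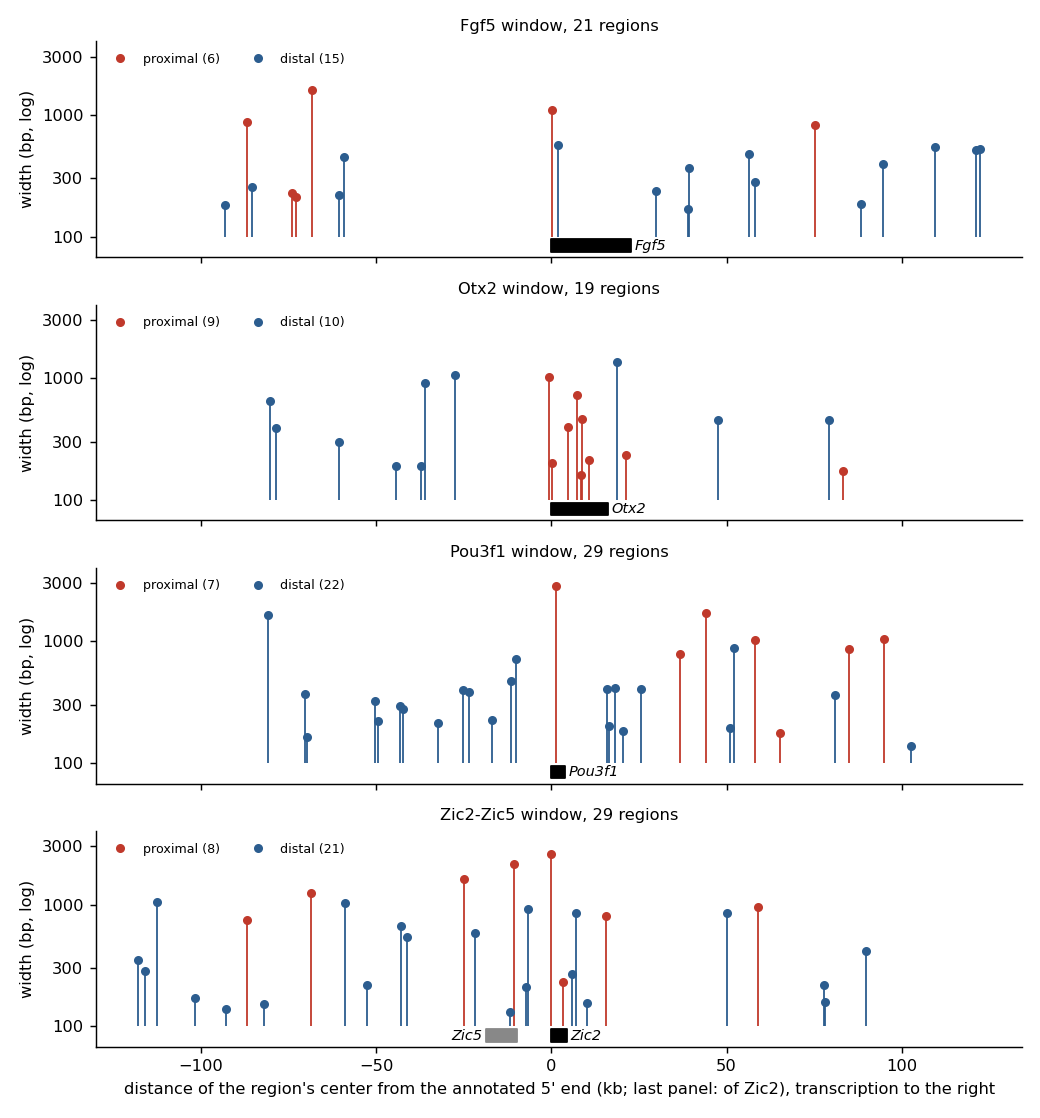
Merged regions in the windows of Fgf5, Otx2, Pou3f1 and Zic2 with Zic5. The x axis is the distance of the region's center from the annotated 5′ end in kb (in the last panel that of Zic2), with transcription to the right, the y axis is the width in bp on a log scale, black and grey bars are the genes, and colors separate regions within 1 kb of a TSS (proximal) from the others (distal). Fgf5 has a stretch of 58.4 kb without a region before its 5′ end, Otx2 has 6 proximal regions inside the gene, and the widest regions of Pou3f1, Zic2 and Zic5 lie over their 5′ ends.

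A region was present over the annotated 5′ end of all 5 genes, where 61.6% of protein-coding genes had one. The 5′ end is the outermost annotated start of each gene, and its other starts were not counted. The widths separated the genes. The region over the 5′ end of Pou3f1 was 2829 bp wide (chr4:124656676-124659504), that of Zic2 2618 bp (chr14:122473896-122476513) and that of Zic5 2137 bp (chr14:122463702-122465838). Among the widths at the 13514 protein-coding genes with a region over the 5′ end these rank at the 99.7, 99.4 and 97.5 percentiles, and the median was 1135 bp. Regions of 2 kb or more thus stood over the 5′ end of 3 of the 5 genes, against 2.43% of protein-coding genes. Fgf5 had a region of 1102 bp (chr5:98253806-98254907), at the 46.2 percentile and close to the median. The region over the 5′ end of Otx2 was only 202 bp wide (chr14:48673639-48673840), at the 0.659 percentile. It is followed after a gap of a few bases by a region of 1023 bp (chr14:48673849-48674871), and with regions less than 100 bp apart joined it measured 1233 bp, so its narrow width rests on the way neighboring peaks were kept apart. The same joining widened the Zic5 region to 2354 bp and left the other 3 as they were.

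The regions over the 5′ ends had GC and CpG contents above the medians of such regions at protein-coding genes. Their GC content was 64.5% at Fgf5, 66.8% at Otx2, 70.7% at Pou3f1, 66.5% at Zic2 and 67.2% at Zic5, each above the median of 60.3% over such regions. CpG dinucleotides reached 0.741 of the number that base composition predicts at Fgf5, 0.853 at Otx2, 0.906 at Pou3f1, 0.840 at Zic2 and 0.813 at Zic5, with a median of 0.720 over all regions at 5′ ends. Pou3f1, the gene with the widest region, also had the highest value for both. Fgf5 was only at the 55.7 percentile for CpG. The Otx2 values are those of the 202 bp region alone. The adjoining region of 1023 bp had a GC content of 59.1% and a CpG ratio of 0.472, both below these medians. Values for the 2 regions joined were not computed.

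**Figure D2:**
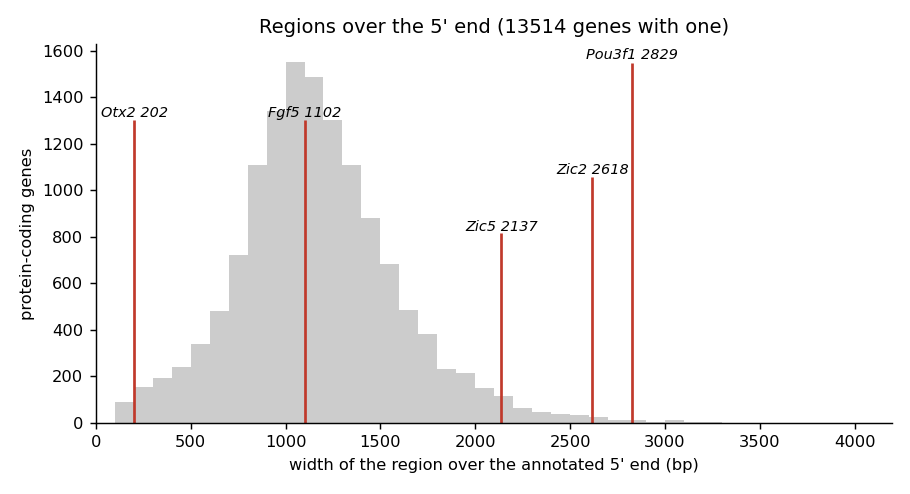
Widths of the regions over the annotated 5′ end of protein-coding genes, with a bin of 100 bp on the x axis and the number of genes on the y axis. The red lines give the 5 genes: Otx2 at 202 bp lies at the narrow end, Fgf5 at 1102 bp lies near the median of 1135 bp, and Zic5, Zic2 and Pou3f1 lie above 2 kb.

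Fgf5 (ENSMUSG00000029337.2) lies on the plus strand at chr5:98254184-98277030. Both of its annotated TSSs are covered by the 1102 bp region. The region in its intron, 569 bp wide (chr5:98255751-98256319), is centered 1.85 kb from the 5′ end and is the nearest and the widest distal region of the gene. Its whole length held an OTX and a ZIC motif, which lie outside the central bases printed above. Among protein-coding genes the nearest distal region was at a median of 7.43 kb, and Fgf5 ranked at the 8.86 percentile. These are the only regions within the gene, and 5.66% of its 22847 bp is covered.

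Of the 8 regions in the 100 kb upstream of Fgf5, 4 were distal, and few lay close to the gene. Between Prdm8, the next gene upstream, and the 5′ end of Fgf5 there are 65.2 kb with 2 regions, both distal, 218 and 452 bp wide. The nearest, chr5:98194928-98195379, is 59.0 kb from the 5′ end, and 60.8% of it is soft-masked as repeat. The 58.4 kb from there to the promoter region hold no region. Such a stretch is at the 81.9 percentile of the longest gaps at protein-coding genes, whose median was 33.5 kb.

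The downstream side, described apart because enhancers of Fgf5 are known there, held 5 regions in the 52.3 kb between the 3′ end of Fgf5 and Cfap299, all of them distal. They are 238 bp wide at 29.8 kb from the 5′ end (chr5:98283883-98284120), 169 bp at 38.9 kb (chr5:98293026-98293194), 365 bp at 39.4 kb (chr5:98293375-98293739), 472 bp at 56.3 kb (chr5:98310291-98310762) and 278 bp at 58.1 kb (chr5:98312157-98312434). The region at 29.8 kb stands alone and the other 4 lie in pairs. The 5 have a median width of 278 bp, below the median of 344 bp over all distal regions. Per 100 kb this stretch held 9.57 regions and the stretch between Prdm8 and Fgf5 held 3.07. The coordinates of the numbered Fgf5 enhancers were not used here, so none of the 5 regions is assigned to any of them. Beyond the 5′ end of Cfap299, the remaining 6 regions of the window lie in or at that gene, and the window of Fgf5 had 0 distal regions of 1 kb or more.

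Otx2 (ENSMUSG00000021848.16) lies on the minus strand at chr14:48657677-48673819 and has 11 annotated transcripts that start at 10 positions. A merged region covered 2 of these 10. They are the most upstream start, at 48673819, under the 202 bp region, and an internal start at 48665106, under a 459 bp region (chr14:48664888-48665346). The 5 starts that lie within 137 bp of each other, from 48667508 to 48667644, serve 6 transcripts and had no region over them, with the nearest region 791 to 927 bp away. The starts at 48665521 and 48662872 missed a region by 3 and 86 bp, and the start at 48661932 by 1026 bp. The body of Otx2 held 6 regions in 16.1 kb, between 159 and 730 bp wide, and 0 of them were distal.

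The flanks of Otx2 differed in content. Its 5′ flank of 100 kb held 8 regions, of which 7 were distal, and all 7 lie in introns of Otx2os1, a long non-coding RNA gene that runs from Otx2 in the opposite direction. The nearest of these is also the widest, 1063 bp (chr14:48700716-48701778), 27.4 kb from the 5′ end. The farthest of the distal regions, 644 bp at 80.4 kb (chr14:48753875-48754518), is the region printed above with the octamer, the SOX motif and the composite match. An octamer together with a SOX motif in the central 200 bp was present in 155 of 141108 distal regions (0.110%), and in 1 of the 68 at these genes. This pair, one of many possible pairs of motifs, was not a planned measure, so these shares were not read as a difference. The 3′ flank held 5 regions, 3 of them distal. The widest distal region of the gene, 1356 bp (chr14:48654411-48655766), is centered 18.7 kb from the 5′ end, past the 3′ end of the gene, and is also its nearest distal region, at the 82.6 percentile of distances. The longest gap, 31.2 kb, lies farther out on this side, between chr14:48594334-48594785 and chr14:48625953-48626400, and is near the median of genes. Coordinates of known Otx2 enhancers were not used here.

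Pou3f1 (ENSMUSG00000090125.3) has 1 annotated transcript, on the plus strand at chr4:124656807-124660655, and its promoter region covers 2698 of the gene's 3849 bp (70.1%). Upstream, 13 distal regions lie within 100 kb, and all 13 are in introns of Gm2164, an antisense transcript gene. The nearest is 719 bp wide at 10.1 kb (chr4:124646348-124647066) and held a ZIC and an ESRRB motif in its central bases. The widest is 1656 bp at 80.9 kb (chr4:124575048-124576703), the widest distal region at any of the 5 genes. Downstream there are 15 regions, 9 of them distal. The other 6 lie within 1 kb of a TSS of Utp11, Fhl3, Sf3a3, Inpp5b or Gm12915. The nearest distal region on this side is 404 bp at 15.9 kb (chr4:124672495-124672898), and the widest is 887 bp at 52.2 kb (chr4:124708612-124709498). The longest gap, between chr4:124586931-124587093 and chr4:124606313-124606635, was 19.2 kb, below the lower quartile of 23.1 kb over protein-coding genes, and shorter than the 58.4 kb at Fgf5.

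Zic2 (ENSMUSG00000061524.8, plus strand, chr14:122475435-122479852) and Zic5 (ENSMUSG00000041703.7, minus strand, chr14:122456795-122465677) are transcribed away from each other with 9.76 kb between their 5′ ends. Of that interval, 28.9% is covered. Over their whole windows, 8.74% was covered at Zic2 and 9.44% at Zic5, where protein-coding genes had a median of 5.36%. The interval holds the upstream part of both promoter regions and, between them, distal regions of 209 bp (chr14:122468039-122468247) and 913 bp (chr14:122468392-122469304), the nearest distal regions upstream of Zic5 and of Zic2. Inside Zic5 a region of 131 bp (chr14:122463485-122463615) lies 2.13 kb from its 5′ end. Of the 2 annotated starts of each gene, 1 had a region over it. Downstream of Zic2, the nearest distal region is 269 bp at 5.94 kb (chr14:122481244-122481512) and the widest 852 bp at 7.10 kb (chr14:122482109-122482960). The widest distal region of the whole window, 1057 bp (chr14:122362525-122363581), lies 102.6 kb from the 5′ end of Zic5 in an intron of Clybl. Upstream of Zic2, on the far side of Zic5, a region of 1027 bp at 59.0 kb (chr14:122415954-122416980) held an octamer and a ZIC motif.

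The longest gap in the Zic window was 33.8 kb, from chr14:122490556-122491368 to chr14:122525211-122526061, at the 50.7 percentile. The region at its far end is 98.2% soft-masked, as is 99.5% of the region at chr14:122564952-122565363, and the part of repeats in these calls was not tested. Over all 98 regions, 5 were masked over more than 50% of their length. The share of all regions in the list masked to that extent was not computed. Over all distal regions the upper quartile of the masked share was 38.5%.

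Distal regions, with a center more than 1 kb from any annotated TSS, made up 68 of the 98 (69.4%, 95% Wilson interval 59.7 to 77.6%), against 82.7% of all regions, those far from genes included. By window they were 15 of 21 at Fgf5, 10 of 19 at Otx2, 22 of 29 at Pou3f1 and 21 of 29 at the Zic genes, so Otx2 had the lowest share. For 7 of the 30 proximal regions the nearest TSS to the center was that of a member gene, and for the others it was that of another gene or an antisense transcript, as for the region over Pou3f1, whose center lies nearest to a TSS of Gm2164. With the TSSs of protein-coding genes only, the shares were 77.6% at these genes and 86.5% over all regions. In that setting the region over the 5′ end of Pou3f1, centered 1.28 kb from it, counts as distal. Windows placed on genes take in promoters, so windows of other genes are the closer comparison. Protein-coding genes measured the same way had medians of 7.17 distal regions and 10.1 regions per 100 kb. For the 5 genes these medians were 8.32 and 12.2. Distal regions in introns were 40 of 68 (58.8%), against 46.6% of all distal regions. Regions 1 kb or wider were 16 of the 98, against 9.83% over the list, and 5 of these 16 were distal. The shares over the list, for introns and for width alike, also take in regions far from genes.

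The distal regions at these genes had a median width of 363.5 bp, where all distal regions had 344 bp, with quartiles of 213 and 559 bp. Their median GC content was 49.8%, against 48.3%. The ratio of observed to expected CpG had a median of 0.322, against 0.217 with quartiles of 0.119 and 0.343 over all distal regions. It was highest in the Zic window, at 0.465, and was 0.322 at Fgf5, 0.307 at Otx2 and 0.239 at Pou3f1. Soft-masked bases took a median of 7.78% of these regions, against 13.7% over all distal regions.

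**Figure D3:**
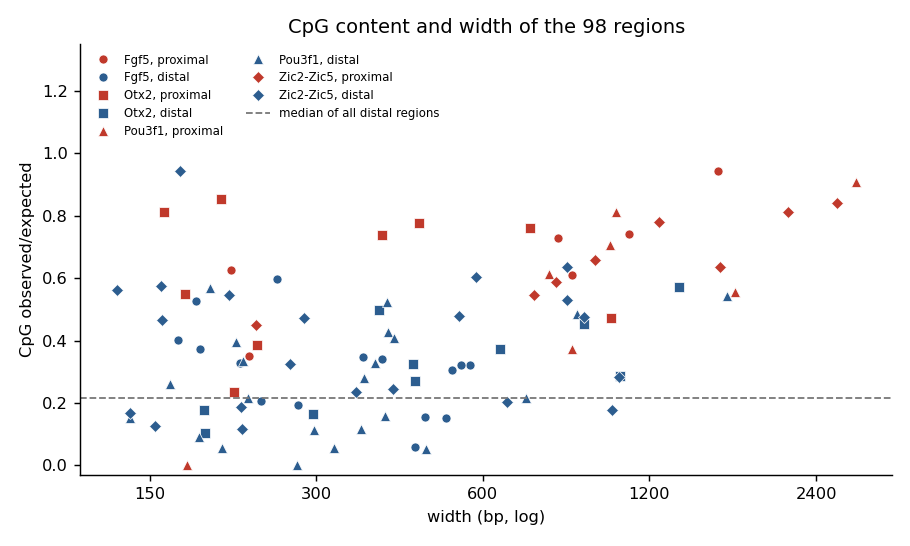
CpG content and width of the 98 regions. The x axis is the width in bp on a log scale, the y axis is the ratio of observed to expected CpG, symbols give the window, red and blue give proximal and distal regions, and the dashed line is the median of all distal regions, 0.217. The median of the distal regions at the 5 genes was 0.322, and most points lie above the dashed line.

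The 200 bp around the center of each distal region were searched for 11 short motifs, with 0 mismatches and on both strands. In 34 of the 68 this window held at least 1. The share of all distal regions with at least 1 was not computed, so this count cannot be set against the list. In regions under 200 bp wide the window includes bases outside the region. The KLF match at chr14:122373619-122373788 and the ESRRB match at chr14:122485435-122485591 lie in such outside bases. Of the motifs of the factors that dox turns off, the octamer was found in 3 (4.41%, 95% Wilson interval 1.51 to 12.2%), against 2.23% of all distal regions, and the SOX motif in 7 (10.3%, 5.08 to 19.8%), against 4.56%. Of the octamers, 1 is in the 5′ flank of Otx2 and 2 are in the Zic window. Of these 2, 1 is in chr14:122564952-122565363, which is 99.5% soft-masked. The SOX motif was found in 2 regions at Fgf5, 2 at Otx2 and 3 in the Zic window, and in 0 of the 22 at Pou3f1. By the rule that a count of 0 leaves room for 3, this allows a share of up to 13.6%. The motifs of the factors that these genes encode were found in 6 regions for OTX (8.82%, against 6.38%) and in 8 for ZIC (11.8%, against 9.71%). The OTX motif was in 3 regions at Fgf5, 2 at Pou3f1, 1 in the Zic window and 0 at Otx2, and the ZIC motif was in 2 at Fgf5, 1 at Otx2, 4 at Pou3f1 and 1 in the Zic window.

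Motifs of other factors of the naive or formative state were about as frequent as in the whole list. The ESRRB motif AAGGTCA, of a naive factor, was in 4 regions (5.88%, against 6.61%), the KLF motif in 6 (8.82%, against 7.6%), the AP-2 palindrome in 4 (5.88%, against 7.82%) and the TCF/LEF motif CTTTGAT in 2 (2.94%, against 3.86%). The CTCF motif AGNGGGCGC, of the factor at the borders of chromatin domains, was in 1 (1.47%, against 1.43%). The motif AACCGGTT of the epithelial factors of the GRHL family and the motif CCGGAAGT of ETS factors were in 0 of 68, which by the same rule allows a share of up to 4.41% (Wilson upper bound 5.35%), and in 0.105% and 0.371% of all distal regions. For 10 of the 11 motifs the interval held the share over all distal regions. The exception was SOX, whose lower bound of 5.08% lies just above 4.56%, and with 7 matches among 11 motifs examined this was not read as a difference. The SOX motif and the octamer are the parts of the composite element, so these searches overlap, and each match is a description of letters, not of binding.

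**Figure D4:**
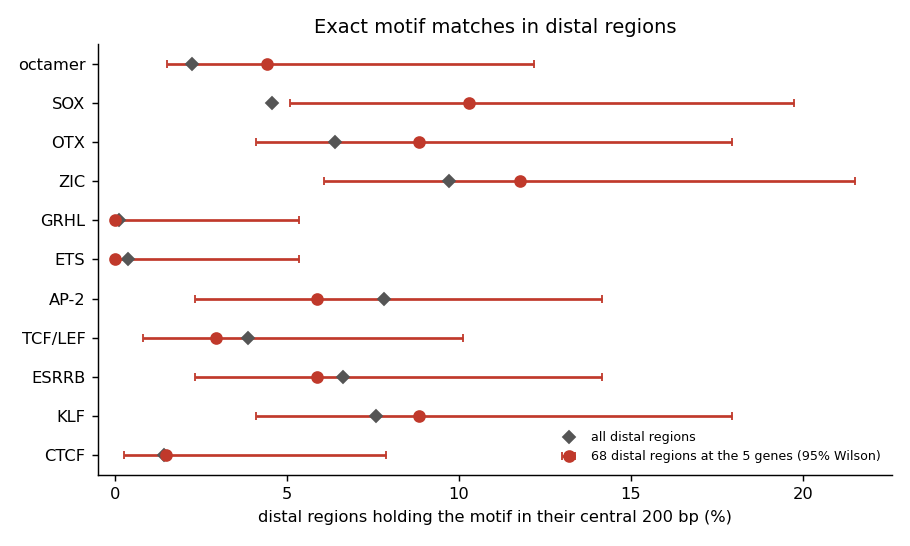
Share of distal regions that held each of 11 motifs in the 200 bp around their center, in percent on the x axis. In regions under 200 bp wide this window runs past the edges. Red points are the 68 distal regions at the 5 genes with 95% Wilson intervals, and grey diamonds are all distal regions. The SOX interval alone, from 5.08 to 19.8%, does not reach its diamond at 4.56%.

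The composite element was found, with at most 3 mismatches and over the whole region, in 3 of the 98 regions (3.06%), against 2.81% of all regions. They are the region at Otx2 printed above, a region of 399 bp at Pou3f1 (chr4:124631446-124631844), 59.1% of which is soft-masked, and a region of 153 bp in the Zic window (chr14:122393269-122393421). At most 2 mismatches left 0 of 98, against 0.405% of all regions. None was found at Fgf5.

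The 5 genes were set beside lists of genes of neighboring states, measured in the same way. Naive pluripotency genes, 11 in number, had a median of 17.3 regions per 100 kb, and 10 of them lay above the median of protein-coding genes. Nanog had the highest value, 24.1, and Nr0b1 the lowest, 1.96, below all of the 5 genes. Klf4 with 10.2, Zfp42 with 12.7 and Tfcp2l1 with 13.2 lay below Pou3f1 and Zic5. The median of the 5 genes was 12.2, of 9 other formative genes 11.7, of 8 mesendoderm genes, which are active later during gastrulation, 11.4, and of 9 paralogs of the members 8.37. A region over the 5′ end was present at 7 of the 9 other formative genes, at 9 of the 11 naive genes, at 5 of the 8 mesendoderm genes and at 4 of the 9 paralogs. Only the outermost annotated start was examined, so a gene without a region there may have one over another start. Such a region was 2 kb or wider at 3 of the 9 other formative genes, which are Grhl2 with 2482 bp, Cdh2 with 3238 bp and Sox3 with 2205 bp, and at 0 of the naive, mesendoderm and paralog genes. Among the paralogs, Otx1 had 5.29 regions per 100 kb and no region over its 5′ end, and Zic1 had 9.15 and also none, where Otx2 and Zic2 had 8.79 and 12.2 and a region each. Pou3f2 had 4.86 per 100 kb with a region of 1918 bp, where Pou3f1 had 14.2 with 2829 bp. Fgf4, a growth factor gene active in ES cells, had 14.2 per 100 kb and none over its outermost annotated start, where Fgf5 had 9.42 and a region of 1102 bp. Fgf6 had 9.88 and none, Crx had 14.5 and none, and Zic4 had 8.37 with a region of 1307 bp. Pou3f3 had 6.75 with a region of 452 bp and Pou3f4 had 1.48 with a region of 1462 bp. Neighboring genes of a list can share regions, as Zic1 and Zic4 do, with the same longest gap of 58.9 kb. List medians and counts thus do not rest on independent genes. These differences were not tested.

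**Figure D5:**
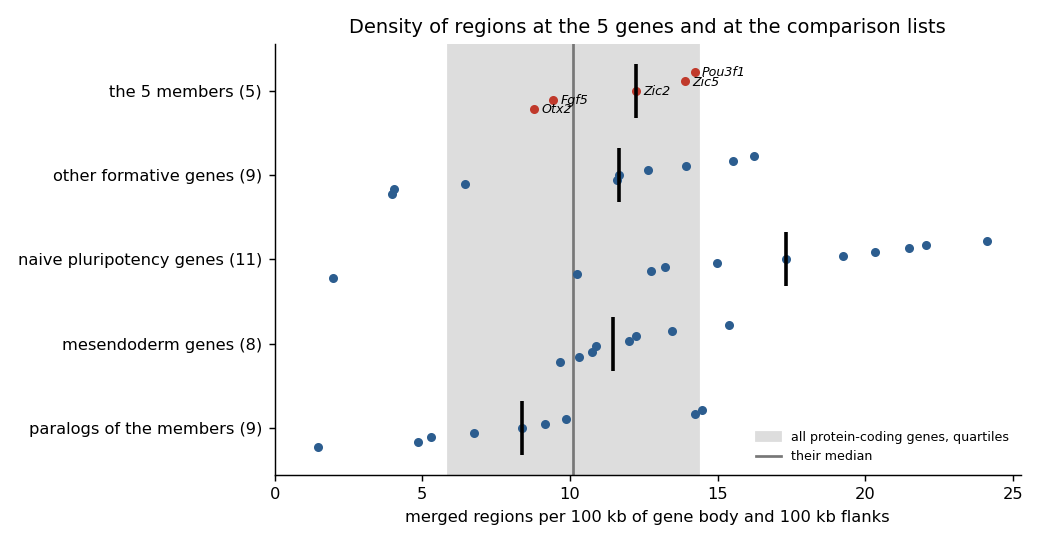
Merged regions per 100 kb at the 5 genes and at the comparison lists. The x axis is the number of regions per 100 kb of the gene body with 100 kb to either side, each point is a gene, black bars are list medians, the grey band spans the quartiles of all protein-coding genes (5.86 to 14.4) and the grey line is their median (10.1). The 5 genes lie inside the band, and the median of the naive genes, 17.3, lies above it.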

How the data were processed

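ATAC-seq was measured in 12 libraries, 4 of ZHBTc4 and 8 of 2TS22C cells, with 2 replicates in each group. Per the labels and the methods of the study, the authors aligned reads to mm10 with STAR 2.6.1c, removed duplicates with Picard, called peaks from read pairs with MACS2 2.1.1.20160309 and used BEDTools to merge those of both lines. Their methods then remove peaks over 5 kb and those overlapping Input or blacklisted peaks. The list still holds 16 regions over 5 kb (0 among the 98), and whether the other filters were applied to it was not checked. Whether published libraries in other medium entered the merge is not given in the sources used here. Whether peaks were called per replicate is not given in the sources used here. The values deposited by the authors are the start and end of each region in bp, with 0 columns of values per sample, so conditions could not be tested, leaving out single samples was not possible and depth is unknown.

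The reference was GRCm38 with GENCODE M21, the authors' build with a later annotation. Regions were counted when they overlapped a gene body or 100 kb to either side, and coordinates are counted from 1. Distal means a center more than 1 kb from every annotated TSS. Percentiles are ranks among protein-coding genes of chromosomes 1 to 19, X and Y. Motifs were searched as exact letters. The regions named are those over TSSs, the nearest and widest distal regions on each side, those beside the longest gap and those with a composite match. Others were named, and the motif letters capitalized, after their values were seen. The members and gene lists were chosen with earlier results of these data known, and an item of the lists is not reported here. Settings changed in the alternatives were the flank, width filter, joining, TSS set, window and mismatches. Functions were tested on simulated data. Python 3.11.15, NumPy 2.4.6, pandas 2.3.3, SciPy 1.17.1 and matplotlib 3.10.9 were used.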

Additional observations from a re-analysis of the deposited data

How the results depend on the processing

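No paired analysis was possible because values per sample are not part of the list, and no replicate was left out. At unknown depth, a region that was not called and closed chromatin cannot be told apart, nor can the conditions in which a region was called. Regions and genes are not replicates.

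With flanks of 50 kb the percentile of region density was 24.9 for Fgf5, 59.8 for Otx2, 87.6 for Pou3f1, 71.6 for Zic2 and 77.5 for Zic5, and Fgf5 had 5.70 regions per 100 kb. With flanks of 200 kb the percentiles were, in the same order, 24.5, 26.4, 60.1, 61.8 and 67.5, and the density over all windows was 8.88 per 100 kb. With distal regions only they were 27.3 for Otx2, 80.0 for Pou3f1, 60.1 for Zic2 and 74.7 for Zic5. By the share of bases covered they were 41.7, 40.0, 79.5, 81.3 and 85.9, and with 100 kb around the 5′ end 41.6, 44.7, 70.7, 62.2 and 64.9. Otx2 changed sides of the median of genes with the 50 kb flank. Fgf5 fell below the lower quartile with both other flanks. Above the upper quartile were Pou3f1, Zic2 and Zic5 by bases covered, Pou3f1 and Zic5 with the 50 kb flank, and Pou3f1 with distal regions only.

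Joining regions less than 100 bp apart gave widths over the 5′ end of 1233 bp for Otx2 and 2354 bp for Zic5. In the central 400 bp the ZIC motif was in 25% (16.9% of all distal regions) and the AP-2 palindrome in 14.7% (13.3%), and in the whole region these were 23.5% (17.6%) and 17.6% (14.2%). The composite count was 0 with at most 2 mismatches (0.405% of all regions) and 11 of 98, or 11.2%, with at most 4 (13.8% of all regions). The other 31 values that these alternatives gave for the main results equalled the reported value or stayed within its 95% interval. For a percentile this was the Wilson interval of the rank. Among these, the octamer stayed at 4.41%, against 3.7% of all distal regions in 400 bp and 3.85% in whole regions. The SOX motif was in 13.2% in the central 400 bp (95% Wilson interval 7.12 to 23.3%, against 8.09%). In whole regions it was in 16.2% (9.28 to 26.7%, against 8.31%), which was not tested.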
